A study of Mus musculus with 18 samples.

Results

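A module of 200 array probes had a signal in whole mouse testis that was much lower at E12.5, E15.5, P7 and P14 than at both P21 and Adult. The study profiled long noncoding RNAs and mRNAs together on 1-colour arrays, with 3 arrays at each of 6 stages: embryonic days 12.5 and 15.5, postnatal days 7, 14 and 21, and the adult. All groups were whole testis, and no treatment, strain, genotype or adult age is given in the sources used here. The titles number the replicates without naming the animal or litter behind each, so a p-value here stands for the spread among these arrays, and that spread may be technical.

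As background, the first wave of spermatogenesis in the mouse runs nearly in step through the whole testis. Spermatogonia are the most advanced germ cells in the first postnatal week, spermatocytes in meiotic prophase dominate the second, and round spermatids appear around the end of the third. Spermatocytes and round spermatids are known for transcribing a large set of testis-specific genes for the acrosome, the flagellum and energy supply, and elongating spermatids, which come later, store these transcripts while their chromatin is packed. In whole testis, a higher signal from more cells of a type cannot be told apart from more RNA per cell.

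The members were chosen from measured values. Among 34232 probes with identifiers that begin with ASMM9PARTA, out of 37820 probes in all, the median of the 3 arrays was taken at each stage. Both late medians (P21 and Adult) reached at least 9 on the log2 scale for 10699 probes, and for 6756 of these they lay within 1 of each other. The score of a probe was the lower late median minus the highest of the 4 early medians. Of these 6756 probes, 704 had a score of at least 2, which is 2.06% of the ASMM9PARTA probes. The 200 highest scores, from 4.32 to 7.48, make up the module. The cutoff falls in a continuous range: the last 3 members scored 4.33, 4.33 and 4.32, and the first 3 probes left out scored 4.32, 4.32 and 4.30. Because all 18 arrays entered this choice, the difference between late and early stages and the likeness of P21 and Adult are described below without a test.

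None of the identifiers could be matched to a gene in the tables used here, so that a member cannot be called an mRNA or a long noncoding RNA, and the germ cell and somatic marker genes could not be read. The cell type that carries the signal was therefore not examined, and members are given by identifier. Signal values are the authors' log2 values, whose base was inferred from their range. Levels of different probes are not compared as transcript amounts, since probes differ in brightness. Over all probes, P21 replicate 1 stood apart from the other P21 arrays (Pearson r of 0.924 and 0.948, against 0.982 between those), E12.5 replicate 2 from the other E12.5 arrays (0.932 and 0.931, against 0.997) and Adult replicate 1 from the other Adult arrays (0.947 and 0.956, against 0.988). Several values below are also given without 1 of these arrays.

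Each array placed the members in the same state as its stage. The median over members was between 6.83 and 7.74 in the 3 E12.5 arrays, between 6.97 and 7.51 at E15.5, between 7.01 and 7.09 at P7 and between 7.60 and 7.76 at P14. It was between 13.25 and 13.68 in the P21 arrays and between 13.59 and 13.77 in the Adult arrays. In the early arrays the members were thus mostly below the middle of the array, with 25.5% to 44.5% of them above the median of all probes, and in each of the 6 late arrays 100% were above it. The rule asks for late medians of at least 9, which is above every array median, so nothing is read from the late share. P21 exceeded P14 by a median of 5.70 over the members, with single members between 4.14 and 8.78 (difference of stage means, log2), and without P21 replicate 1 the median was 5.81.

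The low and high states were separate in single arrays as well as in stage medians. Every late array was above every early array for 200 of 200 members (7.59% of all 37820 probes), by at least 2 for 198 members (1.87% of all probes) and by at least 4 for 149 (0.521%). The rule favours such probes, so nothing is read from these counts. The 2 exceptions at the limit of 2, named after their values were seen, each had 1 E12.5 array far above the other E12.5 arrays. ASMM9PARTA048000 was at 10.73 in E12.5 replicate 1, against 6.57 and 5.98 in the other E12.5 arrays, and its lowest late array was at 11.92. ASMM9PARTA001487 was at 9.66 in E12.5 replicate 2, against 7.44 and 7.29 in the other E12.5 arrays, and its lowest late array was P21 replicate 1 at 11.13.

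Each array was also read at probes that were chosen without it. When 1 array was left out, 200 probes were chosen from the other 17 and then read in the left-out array. For each of the 6 late arrays, all 200 chosen probes were at least 2 above the highest early median, and the median difference was between 5.15 (P21 replicate 1) and 5.83 (Adult replicate 1). Among all ASMM9PARTA probes the share with such a difference was 4.01%, 3.86% and 3.67% in P21 replicates 1, 2 and 3 and 7.21%, 7.76% and 7.5% in Adult replicates 1, 2 and 3. The early arrays, read in the same way, had all 200 chosen probes at least 2 below the lower late median, except E12.5 replicate 1 with 199. The share of all ASMM9PARTA probes with that difference was, for replicates 1, 2 and 3, 10.4%, 7.79% and 10.4% in the E12.5 arrays and 8.34%, 8.2% and 7.85% in those of E15.5. It was 6.11%, 6.4% and 5.81% at P7 and 4.57%, 4.63% and 4.7% at P14. The chosen lists shared 180 to 200 probes with the 200 members, fewest without P21 replicate 2, and the 3 arrays of a stage may share handling. The medians that a left-out array was set against had entered the choice, as had the other arrays of its stage. A difference of at least 2 was therefore largely built in, and nothing is read from these counts.

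The member with the highest score, ASMM9PARTA050167, shows the switch in its plainest form. The E12.5 arrays read 7.72, 8.01 and 7.76, and it was at 7.64, 6.95 and 7.08 at E15.5, at 7.81, 7.44 and 7.64 at P7 and at 8.19, 8.19 and 8.03 at P14. The P21 arrays read 15.08, 15.96 and 15.88 and the Adult arrays 15.83, 15.54 and 15.67. P21 and Adult overlapped, and the lowest late array was 6.89 above the highest early array.

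The level before the switch differed widely between members. The highest early median was below 7 for 53 members and at least 10 for 29, with a range from 4.65 to 12.51. A total of 35 members were below 6.53, the limit of the dimmest 25% of all probes by mean signal, at all 4 early stages, and 101 were below it at none. By stage, the number below it was 87 (E12.5), 69 (E15.5), 86 (P7) and 51 (P14). No detection call was available, so that a low value cannot be called absence, and for members that were already bright early the word "switched on" describes a large increase only. ASMM9PARTA015517 had the lowest early mean. Its P7 arrays lay between 3.62 and 4.33 and its P14 arrays between 4.42 and 4.75. Its P21 arrays read 9.67, 11.13 and 10.92 and its Adult arrays 10.06, 9.95 and 9.78. ASMM9PARTA032263 had the highest early mean, at 10.15 to 10.64 at P7 and 11.29 to 11.49 at P14, with 16.88, 17.08 and 17.10 at P21 and 17.47, 17.34 and 17.37 in the Adult.

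The late level was high for the array as a whole. Both late medians reached 12 for 161 members, 14 for 79 and 16 for 21, and the late level of 137 members was among the brightest 10% of ASMM9PARTA probes. The rule asks for late medians of at least 9 and ranks by their height above the early ones. A high late level is therefore largely built in. The share of all probes at the limits of 12, 14 and 16 was not counted, and nothing is read from these counts. ASMM9PARTA045064 had the highest P21 mean. It was at 17.55, 17.54 and 17.54 in the Adult, against 17.07, 17.41 and 17.43 at P21. The highest value in the table is 18.34, and whether the brightest probes were saturated was not tested. The lowest P21 mean, 10.34 ± 0.14 (SD, n = 3), belonged to ASMM9PARTA001182, which is also the last member by score. Its P14 arrays read 5.10, 4.53 and 5.05, its P21 arrays 10.26, 10.50 and 10.25 and its Adult arrays 11.03, 10.52 and 10.69.

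The rule does not set the stages before the switch against each other. It uses the highest of the 4 early medians and not their order, so the contrasts between neighbouring early stages were tested in limma's linear model fitted to all 37820 probes and 18 arrays. Calls required an adjusted p under 0.05 (Benjamini-Hochberg, over all probes) together with a 2-fold change, that is 1 in log2 units. Since the rule caps the early maximum, it limits how large a rise before P21 can be.

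A part of the members rose before the switch, between P7 and P14. At P14, 70 of 200 members (35%) were called higher than at P7, against 6.21% of all probes, and 10 members (5%) were called lower, against 6.64%. The median change of the members was 0.66 (P14 minus P7), and over all probes it was −0.06. All 3 P14 arrays were above all 3 P7 arrays for 122 members, against 22.3% of all probes, and below them for 28, against 30.4%. The 120 members that were not called include changes in both directions. P14 held the highest of the 4 early medians for 131 members, E15.5 for 37, P7 for 22 and E12.5 for 10. The rule weighed these medians only by their maximum. How often each stage held the highest early median over all probes was not counted, so nothing is read from this split.

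The rule fixes a large step after P14 and caps the P14 level, so the size of the rise at P14 beside that step is a description. Among the 70 members called higher at P14 the rise from P7 to P14 was between 1.01 and 3.41, with a median of 1.65, and 21 of them reached at least 2. Their P14 level was below P21 by a median of 5.34 (5.47 without P21 replicate 1). On the log2 scale a median of 23.3% of the difference between P7 and P21 was present at P14 in these members, and 42.6% at most. For the 120 members with no call the median was 4.77%. Of the 70 members, 30 had a P7 mean below 6.53, the limit of the dimmest 25% of probes, and 66 had a P14 mean at or above it. In 58 of the 70, all P14 arrays were above all arrays of the 3 earlier stages. The call against P7 favours such a separation, and its share over all probes was not counted, so nothing is read from it.

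ASMM9PARTA000358 had the largest rise at P14. It was at 12.06, 12.28 and 12.21 at P14, against 8.93, 8.62 and 8.77 at P7, a change of 3.41 (SE 0.21, adjusted p = 2.78e-08, limma). It then stood at 16.48, 16.91 and 16.93 at P21 and at 16.82, 16.84 and 16.84 in the Adult, so that it came up in 2 steps, and the Adult arrays lay within the range of the P21 arrays. ASMM9PARTA034187 followed, at 11.74, 11.85 and 11.73 at P14, against 8.67, 8.66 and 8.97 at P7 (change 3.01, SE 0.24, adjusted p = 5.23e-07, limma). In both members the stages P7 and P14 were far from overlapping.

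A small set did the opposite and fell before the switch. The 10 members called lower at P14 had changes from −1.79 to −1.01, and 6 of them had a P14 mean below 6.53, where the signal of a probe may be close to background, for which no measurement was used here. ASMM9PARTA004647 was at 4.63, 4.41 and 4.68 at P14, against 6.37, 6.41 and 6.30 at P7 (change −1.79, SE 0.38, adjusted p = 0.00395, limma). It had 12.94, 13.75 and 13.39 at P21 and 14.22, 13.96 and 14.27 in the Adult, the largest difference between P21 and P14 of any member, 8.78. ASMM9PARTA045493, at 3.98, 3.87 and 4.15 at P14 against 5.63, 5.63 and 5.74 at P7 (change −1.67, SE 0.30, adjusted p = 0.00112, limma), had an Adult mean of 12.76 and a P21 mean of 12.77. Over the 10 members called lower the median of Adult minus P21 was 0.74, and it was 0.19 over the 70 called higher and 0.49 over the 120 not called. Without P21 replicate 1 these medians were 0.54, 0.07 and 0.38. The difference between these groups was not tested.

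Other probes showed where the P14 rise stood beside like patterns. These sets were defined on the same data, and the differences between them were not tested. Of the 504 probes that passed the rule with lower scores, 203 (40.3%) were higher at P14 and 8 were lower (1.59%). A set of 6052 ASMM9PARTA probes met the same limits at the late stages (medians of at least 9 and within 1 of each other) but had a score under 2. Of these, 10.8% were higher and 4% lower. They were not matched to the members in brightness: 188 of the 200 members had both late medians at 11 or more. A further set held 64 probes with a step at P21 as high as that of the last member but with an Adult median over 1 above P21. Of these, 8 were higher at P14 (12.5%) and 17 were lower (26.6%), with a median change of −0.39 and stage medians of 6.48 (P7), 6.14 (P14), 11.97 (P21) and 14.60 (Adult). Only 10 probes had a step of that height and an Adult median over 1 below P21. Of these, 6 were higher at P14 (60%) and 0 were lower, with a median change of 1.59.

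From E12.5 to E15.5 the share of members called was near that of all probes, and the count depended on 1 array. At E15.5, 25 members (12.5%) were called higher than at E12.5, against 10.6% of all probes, and 10 (5%) were called lower, against 9.46%. Those called lower include ASMM9PARTA047734, ASMM9PARTA047241, ASMM9PARTA047587 and ASMM9PARTA047805, whose profiles repeated each other and are described below. The median change was 0.12 over the members and 0.12 over all probes. E12.5 replicate 2 stood apart, with a member median of 7.74 against 6.83 and 6.85 in the other E12.5 arrays. The difference between replicate 2 and each of the others had an SD over all probes of at least 1.08, while replicates 1 and 3 differed by an SD of 0.23, the smallest of any pair of arrays of one stage. Without replicate 2, 51 members were higher and 3 lower, against 15.3% and 13.2% of all probes, and the median change was 0.45. With replicates 1 and 3 averaged to 1 array, 16 members were higher and 13 lower, against 7.84% and 5.63% of all probes, and the median change was −0.03.

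ASMM9PARTA044647 had the largest fetal rise among the members, named after its values were seen. It was at 7.85, 7.29 and 7.62 at E15.5, against 5.65, 4.93 and 5.55 at E12.5 (change 2.21, SE 0.34, adjusted p = 0.000236, limma). ASMM9PARTA001073 had the largest fetal fall, at 4.95, 2.77 and 2.74 at E15.5, against 5.43, 6.33 and 5.26 at E12.5 (change −2.18, SE 0.46, adjusted p = 0.00265, limma). All 3 E15.5 arrays were below the limit of the dimmest 25% of probes, and replicate 1 stood above the other E15.5 arrays. Without E12.5 replicate 2 the changes were 1.98 for ASMM9PARTA044647 (adjusted p = 6e-04, limma) and −1.85 for ASMM9PARTA001073 (adjusted p = 0.00844, limma).

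From E15.5 to P7, across birth, more of the called members fell than rose, and the share that fell was near that of all probes. At P7, 20 members (10%) were called lower than at E15.5, against 8.23% of all probes, and 2 (1%) were called higher, against 7.5%. The median change was −0.07 over the members and 0.01 over all probes. Without E15.5 replicate 1, 14 members were lower and 5 higher, against 6.47% and 6.37% of all probes, and the median change over the members was 0.05. All 3 P7 arrays were below all 3 E15.5 arrays for 55 members, against 26.4% of all probes, and above them for 34, against 22.9%. The changes of the 20 members called lower were between −3.06 and −1.04. These 20 include ASMM9PARTA013989, ASMM9PARTA014283, ASMM9PARTA014958 and ASMM9PARTA017184, whose profiles repeated each other and are described below. ASMM9PARTA030122 fell most: it was at 4.34, 4.47 and 3.09 at P7, against 7.55, 6.62 and 6.91 at E15.5 (change −3.06, SE 0.41, adjusted p = 7.06e-05, limma). It was also among the 5 members with the largest rise at P14, to 6.68, 6.61 and 6.45 (change 2.62, SE 0.41, adjusted p = 0.00034, limma). A total of 6 members (3%) were higher at E15.5, lower at P7 and higher again at P14, a course that 0.836% of all probes had. No call in any of the 3 contrasts was made for 95 members (47.5%), against 66.2% of all probes, and without E12.5 replicate 2 for 80 (40%), against 59.3%. A call at P14 alone, as higher, was made for 50 members (25%), against 2.61% of all probes.

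ASMM9PARTA044006 was higher at E15.5, lower at P7 and higher again at P14, with little spread at P14 and P21. Its E12.5 arrays read 4.87, 4.81 and 5.06 and its E15.5 arrays 6.99, 6.57 and 6.89. The P7 arrays then read 5.40, 5.47 and 4.94 and the P14 arrays 7.93, 8.01 and 7.94. All 3 contrasts passed the test, with changes of 1.90, −1.55 and 2.69 (SE 0.19 each, adjusted p of at most 3.5e-05, limma). At P21 it was at 13.65, 13.74 and 13.62, one of the 3 narrowest ranges of the members, and in the Adult at 13.51, 13.12 and 13.60. Its range was 0.52 at P7 and 0.48 in the Adult, against medians of 0.34 and 0.26 over the members.

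The members were picked as fully on by P21, so their likeness at P21 and Adult is a description. The Adult median was above the P21 median for 136 members and below it for 64, and the medians were within 0.5 for 117. All 3 Adult arrays were above all 3 P21 arrays for 91 members (13.8% of all probes), below them for 8 (29% of all probes), and the arrays overlapped for 101. Without P21 replicate 1 these counts were 109 (16.6% of all probes), 43 (41.8%) and 48. The rule bounds this difference, so nothing is read from these counts. Over the members, Adult minus P21 had a median of 0.36, with single members from −0.86 to 1.15 (stage means). P21 replicate 3 was within 1 of the Adult mean for 198 members, replicate 2 for 180 and replicate 1 for 149. In replicate 1, 48 members were over 1 below the Adult mean and 3 were over 1 above it. The rule holds the middle P21 array within 1 of the Adult median. Replicate 3 was the lowest P21 array for 5 members and the highest for 50, so it was mostly the middle one. The share over all probes was not counted, and nothing is read from these counts either. Without P21 replicate 1 the median of Adult minus P21 was 0.26, and without Adult replicate 1 it was 0.34.

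The 3 P21 arrays did not rank the members alike. Replicate 1 was the lowest P21 array for 144 members (72%), against 56.2% of the 12767 ASMM9PARTA probes with a P21 mean of at least 9. It was below the mean of replicates 2 and 3 in most members: replicate 1 minus that mean had a median of −0.49, but single members ran from −2.07 to 2.38. Across the 200 members, P21 replicates 2 and 3 had a Pearson correlation of 0.986, replicate 1 had 0.884 with replicate 2 and 0.940 with replicate 3, and the Adult arrays had 0.990 to 0.994 among themselves. The points of these correlations share the array and the brightness of each probe. The range over the 3 arrays had a median of 0.71 at P21 and 0.91 at E12.5, but 0.24 at P14 and 0.26 in the Adult. Over the 12767 ASMM9PARTA probes with a P21 mean of at least 9, these medians were 0.83, 0.69, 0.18 and 0.34.

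The widest P21 range belonged to a member that was high in replicate 1. ASMM9PARTA029535 had P14 arrays at 6.57, 6.48 and 6.97, P21 arrays at 13.87, 11.07 and 11.90 and Adult arrays at 12.07, 12.24 and 13.01. ASMM9PARTA023021 was alike, at 11.68, 11.80 and 12.04 in the Adult, against 12.96, 10.58 and 11.63 at P21. For ASMM9PARTA037196 the P21 arrays were at 16.21, 16.28 and 16.31, the narrowest range of all members. The direction in which P21 replicate 1 departed therefore differed between members, and whether it differed in age, dissection or handling was not tested.

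Some members repeated each other. Of 19900 pairs of members, 19 had profiles that differed by an SD below 0.2 over the 18 arrays, against a median SD of 0.89, and these pairs joined 19 members in 7 sets. The limit was chosen after the values were seen. The largest set held ASMM9PARTA047734, ASMM9PARTA047241, ASMM9PARTA047587, ASMM9PARTA047622 and ASMM9PARTA047805, and 4 of these were among the 10 highest scores. ASMM9PARTA047734 was at 7.33, 8.21 and 7.43 at E12.5 and at 14.64, 15.02 and 14.90 at P21. ASMM9PARTA047241 had 7.44, 8.30 and 7.47 at E12.5 and 14.86, 15.03 and 14.85 at P21. In both, the 3 Adult arrays were above the P21 arrays: ASMM9PARTA047734 had 15.56, 15.84 and 15.43 there and ASMM9PARTA047241 had 15.54, 15.82 and 15.42.

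A second set of 4 had a different fetal course. ASMM9PARTA013989, ASMM9PARTA014283, ASMM9PARTA014958 and ASMM9PARTA017184 were at 9.41 to 9.73 in E12.5 replicate 2 but at 6.49 to 6.89 in the other E12.5 arrays, and at 7.48 to 8.46 at E15.5. Whether the members of a set measure one transcript or a gene family could not be read from the identifiers. With each set counted once, 69 of 188 members (36.7%) were higher at P14 than at P7 and 10 were lower. The contrasts of E15.5 with E12.5 and of P7 with E15.5 were not recounted in this way. Members of these sets make up part of their called members.

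In all, 3 pairs of members had numbers that follow each other directly, and in each pair 1 partner passed the test at P14 against P7 and the other did not. ASMM9PARTA047242 rose (change 1.52, SE 0.26, adjusted p = 0.000848, limma), and ASMM9PARTA047241 had a change of 0.39 (adjusted p = 0.26). ASMM9PARTA047733 rose (change 1.69, SE 0.25, adjusted p = 0.000242, limma), and ASMM9PARTA047734 had a change of 0.36 (adjusted p = 0.311). ASMM9PARTA000919 rose (change 1.75, SE 0.30, adjusted p = 0.000862, limma), and ASMM9PARTA000918 had a change of 0.77 (adjusted p = 0.117). The difference between partners was not tested. Of 251 other probes next to a member in number, 16 (6.37%) had a score of at least 2, against 3.08% of all ASMM9PARTA probes. The limits on late level and gap were not applied here. What the numbering stands for is not given in the sources used here.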

How the data were processed

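Whole testis RNA of 6 stages was hybridised to 18 1-colour Agilent arrays. The submitters' processing notes name Feature Extraction 11.0.1.1. The authors deposited 1 value per probe and array, treated here as log2 (2.38 to 18.34, array medians 7.79 to 8.00). How the authors normalized and filtered the probes, and the base of the log, is not given in the sources used here. Values were used as deposited, and scanner files were not used here. Of 37820 identifiers, 0 matched the gene tables, so the gene lists, markers and promoters were not analysed. No depth in reads applies, and the number of arrays limits the precision.

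limma 3.58.1 (R 4.3.3; lmFit with 1 mean per stage, eBayes) tested 3 contrasts between early stages, adjusted over all probes, with 12 residual and 3.20 prior degrees of freedom. The fit was tested on simulated data. Named members are the extremes by score, late level, early level, change at P14 and P21 range, and members with directly following numbers. The text names some of each class and says where another was chosen after its values were seen. The members, lists and contrasts were chosen with earlier results of these data known. Alternatives were a replicate block, other priors, scalings, filters and thresholds, changed limits of the rule, and arrays left out. Averaging E12.5 replicates 1 and 3 and counting near-identical members once, as well as call patterns and group medians without single arrays, were added after the data were seen.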

Additional observations from a re-analysis of the deposited data

How the results depend on the processing

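The alternatives gave 152 recomputed values of 6 results, and 147 of them stayed within 1.5 times the reported count or within the spread of the P21 arrays. Some could not move: the median of P21 minus P14 is unchanged when an array of another stage is left out. The counts also add higher and lower calls, so a change in their balance does not show. Without E12.5 replicate 1, 15 members were higher and 12 lower at E15.5, against 7.78% and 5.62% of all probes, and this was within the limit. The 147 is therefore not read as a result. The members called at E15.5 against E12.5 numbered 35 (25 higher and 10 lower, against 10.6% and 9.46% of all probes). They numbered 21 when only the 6 arrays compared were fitted (16 and 5, against 8.98% and 5.75%), 54 with E12.5 replicate 2 and P21 replicate 1 both left out (51 and 3, against 15.7% and 14%), and 27 to 54 with single arrays left out, the highest without E12.5 replicate 2. At P7 against E15.5 the count was 22 (2 higher and 20 lower, against 7.5% and 8.23%), with 13 at an adjusted p below 0.01 (1 and 12, against 5.17% and 5.99%) and 18 to 23 with single arrays left out. At P14 against P7 it was 80 (70 higher and 10 lower, against 6.21% and 6.64%), with 66 at that threshold (58 and 8, against 3.93% and 4.52%), 85 after quantile normalization again (76 and 9, against 6.62% and 7.02%) and 68 to 82 with single arrays left out. Of the 200 members, 117 stayed when P21 and Adult had to lie within 0.5, 184 after array medians were made equal, and 180 to 200 with single arrays left out. The median of P21 minus P14 over the members was 5.61 to 5.81 and of Adult minus P21 0.26 to 0.41 with single arrays left out. With the replicate number as a block the counts were 35, 21 and 79. Same-numbered arrays deviated together with correlations from −0.01 to 0.28, and 3 or 4 of 6 arrays per contrast correlated best with their own number, so the numbers were not taken to pair the arrays. No background signal was used here, so no limit of detection was set.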

Other observations

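Probes outside the ASMM9PARTA family took no part in the choice of members, and the limits of the rule were also applied to them. The same arrays were used, and the limits ask for the pattern. That the probes which passed hold it is therefore built in, and nothing is read from it. Under the same limits on level, gap and score, 11 of 527 probes named CUST passed (2.09%), 3 of 2480 with lincRNA in the identifier (0.121%) and 2 of 581 named by a sequence record (0.344%), against 704 of 34232 ASMM9PARTA probes (2.06%). Of these, 8 CUST probes, 1 lincRNA probe and 1 sequence record reached the score of the last member. CUST_133_PI426409190 had stage medians of 7.56, 6.78, 7.42, 7.69, 14.87 and 15.65 from E12.5 to Adult. These were close to those of the member ASMM9PARTA047587, at 7.59, 6.70, 7.40, 7.73, 14.94 and 15.66. Whether the 2 probes measure one transcript was not tested. The lincRNA probe, MM9LINCRNAEXON11441-_P1, had stage medians of 4.24, 5.67, 5.44, 5.86, 10.83 and 11.55. These probes were named after their values were seen.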
